A study of Rattus norvegicus with 24 samples.

Results

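Proteasome subunit transcripts were followed across 6 tissues and 4 ages of the rat. The probe sets were chosen by name: the array annotation had to give a single gene symbol beginning with Psma, Psmb, Psmc, Psmd, Psme or Psmf and a digit, with Psmb8 and Psmb9 left out. The rule found 40 probe sets of 37 genes among 15866 probe sets that are not controls. Of these genes 35 had 1 probe set, Psmd11 had 2 and Psme4 had 3. All 40 probe sets passed the filter for testing, and all had a signal of 100 or more on all 24 arrays. Psmc3ip and Psme3ip1 carry the prefix but are named for an interaction partner and are not subunits. They are included in every count of the 40 below and are also described apart. A further 6 probe sets list a proteasome gene beside another symbol (Psma3l, Psmb6l1, Aoc3 or G6pc1) and were not used, so that Psmb6 and Psme3 have no value of their own here. The Psma3 probe set may also read the near-identical Psma3l.

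RNA came from bone, kidney, liver, spleen lymphocyte, pituitary and hypothalamus of male Sprague-Dawley rats, an outbred strain with no transgene or treatment, aged 4, 10, 18 and 24 months. Each tissue and age is 1 Affymetrix RAE230A array, 24 in all, and the RNA on it was mixed in equal amounts from 10 rats, which gave all the tissues of that age. A group is therefore 1 pooled sample, and the p-values below do not measure the spread between rats. They rest on the differences between arrays left after tissue and age, pooled over the tissues. For slopes they rest on departures from a line in each tissue, also pooled. The age contrasts over all tissues treat the tissues of an age as independent, although they come from the same rats. Values are MAS5.0 signals, a scanner-derived brightness per probe set scaled on each array to a common target. In pooled tissue RNA, fewer cells of a type and less RNA per cell cannot be told apart. Adrenal samples were not analysed here.

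Array medians lay between 212.6 and 309.1, with bone at 18 months the highest, and 67.8 to 77.0% of probe sets reached 100. A sign of RNA integrity is the log2 ratio of the 3' to the 5' control probe set. For Gapdh it was 1.16 to 2.40 in spleen lymphocyte, 0.74 to 2.06 in liver and at most 0.80 elsewhere. For Actb it was 1.89, 3.09, 1.21 and 1.10 at 4, 10, 18 and 24 months in the hypothalamus. It reached 3.74 in spleen lymphocyte at 4 months. The part of RNA quality in the differences below was not tested. Each labelled tissue had all of its own marker genes that are on the array (6 to 9 per list) at 100 or more on all 4 arrays. Bone also carried marrow transcripts: its neutrophil markers summed to 37317 to 98944, against at most 11873 in any other tissue. The liver markers summed to 12575 in the 10 month hypothalamus array, against 1496 to 2792 at the other 3 ages.

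The proteasome is the protease that degrades ubiquitin-tagged proteins in the cytosol and nucleus. Its core particle (20S) is a barrel of outer rings of alpha subunits and inner rings of beta subunits, of which Psmb5, Psmb6 and Psmb7 hold the constitutive active sites. Interferon and lymphoid cells bring in the inducible active-site subunits Psmb8, Psmb9 and Psmb10, which make the immunoproteasome. The regulatory particle (19S) has a base of ATPases (Psmc genes) that unfold the substrate, ubiquitin receptors, and a lid. Other caps are the PA28 activator, whose alpha and beta chains are Psme1 and Psme2, and PA200, the product of Psme4. Psmf1 encodes PI31, known as an inhibitor of the core in the test tube.

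The subunits varied less across tissues than the tested probe sets taken as a whole. The median log2 range of the 6 tissue means was 1.08 for the 40 probe sets, beside 1.59 for all 11756 tested. These sets were not matched for signal. Array medians of the log2 signal were 10.01 to 10.54 for the 40 and 8.28 to 8.78 for all tested. Psma5, an outer-ring subunit, had the narrowest range (0.41), followed by Psma7 (0.44) and Psmb5 (0.46). The 1387345_at probe set of Psme4 had the widest (2.72), followed by Psmb10 (2.52), Psme2 (2.45), Psmf1 (2.40) and Psme1 (2.14). The widest ranges thus belonged to the inducible subunit, the activators and the inhibitor, and none to a constitutive subunit of the core. Psma5 and Psma7 differed from the other tissues in none of the 6 tissue contrasts, while 6 probe sets differed in 5 of them.

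Each tissue was set against the mean of the other 5 with limma, and a probe set was called at an adjusted p below 0.05. The share of all tested probe sets called in the same direction follows each count. In the pituitary 19 of 40 were higher (31.3% of all probe sets) and 3 were lower (19.6%). In spleen lymphocyte 7 were higher (30.1%) and 17 lower (32.6%). In the hypothalamus 9 were higher (25.4%) and 10 lower (30.8%). In liver 5 were higher (20.4%) and 10 lower (40.9%), and in kidney 5 were higher (21.5%) and 13 lower (31.7%). In bone 12 were higher (26.4%) and 6 lower (25.0%). The pituitary had 47.5% of the 40 called higher and spleen lymphocyte 42.5% called lower, both above the share of all probe sets. Under quantile normalization 23 were higher (27.4% of all probe sets) and 4 lower (25.4%) in the pituitary. In spleen lymphocyte 6 were then higher (31.6%) and 19 lower (30.5%). Both splits moved under median centring. When each array was centred on its median instead, 7 were higher (20.7% of all probe sets) and 5 lower (26.9%) in the pituitary. In spleen lymphocyte 10 were then higher (35%) and 10 lower (27.7%), and in liver 8 (25.4%) and 7 (34%). Kidney had 6 higher (23.6%) and 8 lower (26.9%), and bone 6 (21.7%) and 8 (29.6%). Under that scaling the median difference of all probe sets was -0.08 in place of 0.12 in the pituitary, 0.09 in place of -0.04 in spleen lymphocyte, -0.10 in place of -0.23 in liver and -0.10 in place of 0.01 in bone.

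**Figure D1:**
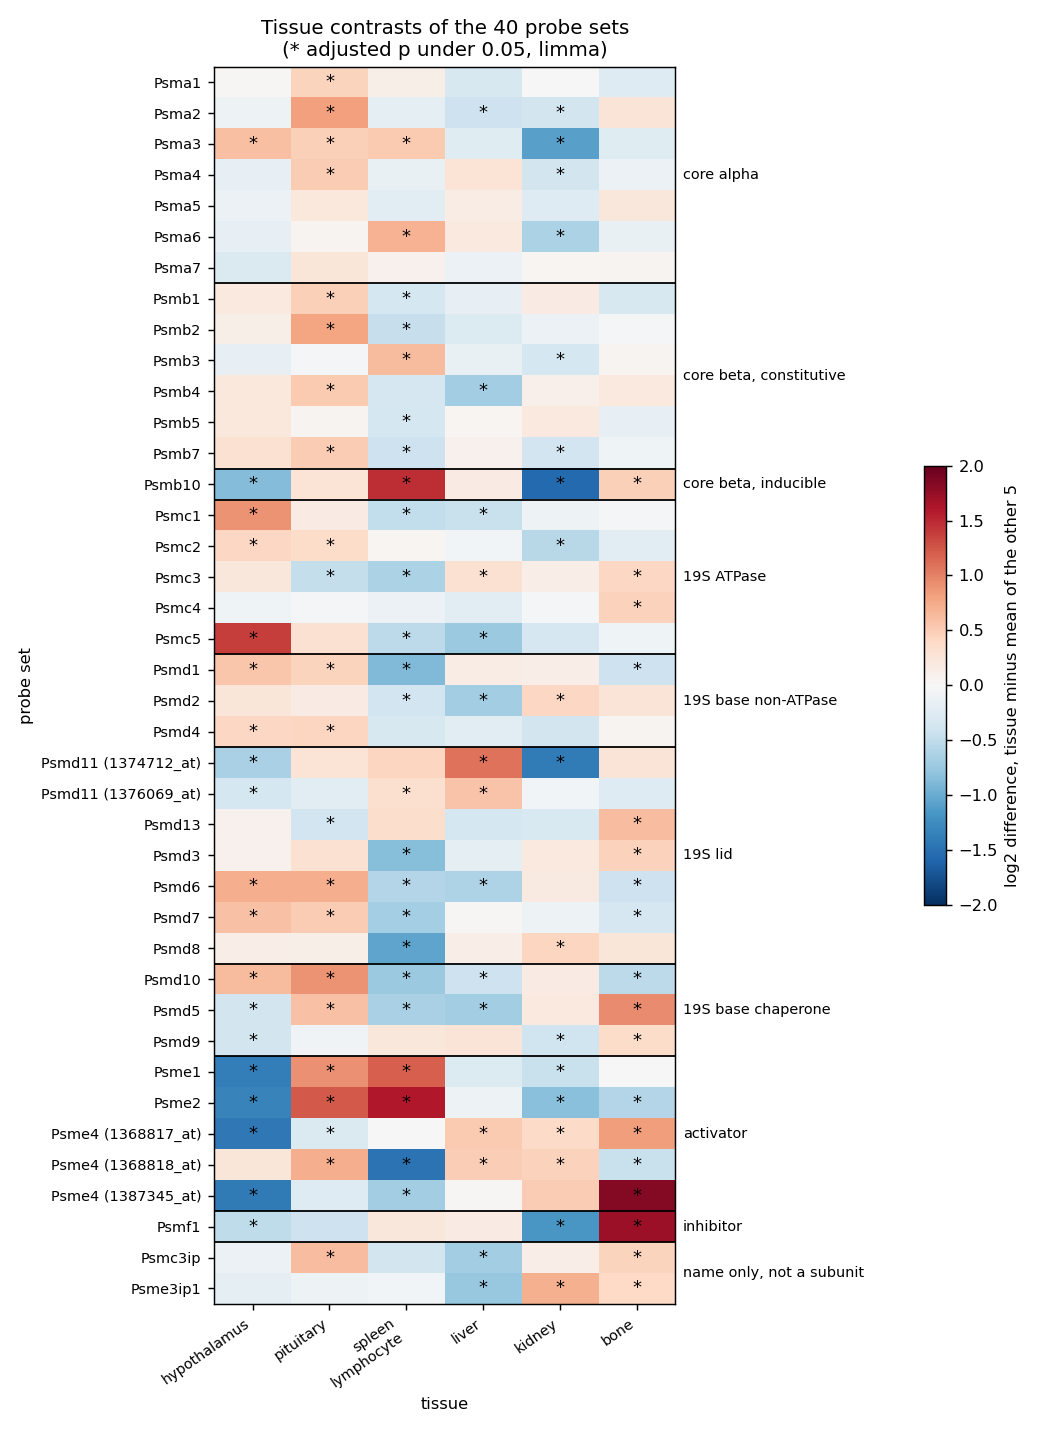
Heat map of the log2 difference of each tissue from the mean of the other 5 (columns) for the 40 probe sets (rows, grouped by place in the complex). Stars mark an adjusted p below 0.05 in limma. The strongest colours lie in the rows of Psmb10, Psmc5, Psmd11, Psme1, Psme2, Psme4 and Psmf1, and the pituitary column holds 19 probe sets called higher.

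The PA28 activator genes were high in spleen lymphocyte and in the pituitary and low in the hypothalamus. Psme1 (1367663_at) had signals of 5962, 5606, 7928 and 7654 at 4, 10, 18 and 24 months in spleen lymphocyte and 5733, 5905, 6088 and 5335 in the pituitary. Its hypothalamic signals were 1408, 1619, 1886 and 1237, and the liver, kidney and bone arrays lay between 2231 and 3734. Spleen lymphocyte and pituitary overlapped with each other, and every array of both lay above every array of the other 4 tissues. The log2 difference from the other tissues was 1.19 ± 0.14 (SE, adjusted p = 1.9e-07) in spleen lymphocyte, 0.92 ± 0.14 (adjusted p = 1.14e-05) in the pituitary and -1.38 ± 0.14 (adjusted p = 2.39e-08) in the hypothalamus.

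Psme2 (1367710_at), the partner chain of Psme1 in the PA28 ring, was likewise highest in spleen lymphocyte and the pituitary and lowest in the hypothalamus. Its signals were 4556, 6232, 6672 and 5278 in spleen lymphocyte, 3845, 4729, 4771 and 4918 in the pituitary, and 1051, 1034, 1163 and 896 in the hypothalamus. No array of the other 3 tissues passed 2456. The difference was 1.60 ± 0.12 (3.03-fold, adjusted p = 1.12e-10) in spleen lymphocyte, 1.23 ± 0.12 (2.35-fold, adjusted p = 1.65e-08) in the pituitary and -1.33 ± 0.12 (adjusted p = 2.41e-09) in the hypothalamus. Kidney was also called lower for both genes (-0.44 ± 0.14 for Psme1, lost under median centring, and -0.83 ± 0.12 for Psme2), and bone for Psme2 alone (-0.58 ± 0.12).

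Psmb10 (1374033_at), the inducible counterpart of Psmb7, was high in spleen lymphocyte and lowest in kidney. It had 2394, 1777, 1638 and 1730 in spleen lymphocyte, against at most 1083 on any array of the other tissues. Kidney had 308, 323, 332 and 335, below every other array, and the hypothalamus had 568, 411, 532 and 433. The log2 difference was 1.48 ± 0.13 (adjusted p = 1.79e-09) in spleen lymphocyte, 0.48 ± 0.13 in bone, -0.86 ± 0.13 in the hypothalamus and -1.55 ± 0.13 (2.93-fold lower, adjusted p = 1.34e-09) in kidney. In the pituitary, where both PA28 chains were high, Psmb10 had 862, 842, 948 and 1067 and was not called (0.27 ± 0.13).

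The listed genes of the immunoproteasome and peptide loading, measured by 11 tested probe sets, gave the same contrast between spleen lymphocyte and pituitary. In spleen lymphocyte 10 of 11 were higher (30.1% of all probe sets) and none lower, and in the pituitary none was higher and 5 were lower (19.6%). Psmb8, the inducible counterpart of Psmb5, had 2811, 2613, 2327 and 3463 in spleen lymphocyte (1.80 ± 0.15) and 448, 586, 625 and 626 in the pituitary, where it was called lower (-0.95 ± 0.15, adjusted p = 2.46e-05). The peptide transporter Tap1 (1388149_at) was 2.26 ± 0.17 higher in spleen lymphocyte and -0.99 ± 0.17 in the pituitary. The high PA28 signals of the pituitary therefore stood beside Psmb8 and Tap1 (1388149_at) signals below the mean of the other tissues. These were not the lowest signals. Psmb8 had 221, 203, 428 and 318 in the hypothalamus and 400, 527, 425 and 492 in kidney. Tap1 1388149_at was under 100 on all arrays of both. The other Tap1 probe set, 1375379_at, had 175, 68, 120 and 140 in the pituitary and 87, 35, 23 and 110 in spleen lymphocyte. Spleen lymphocyte markers summed to 3481 to 4163 in the pituitary, with Cd2 and Cd79b under 100 on all 4 arrays, against 65703 to 71812 in spleen lymphocyte. In the hypothalamus 10 of the 11 were lower (30.8% of all probe sets) and none higher, and in kidney 8 were lower (31.7%) and 1 higher (21.5%). In bone 6 were higher (26.4%) and none lower, and in liver 4 were higher (20.4%) and 1 lower (40.9%).

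**Figure D2:**
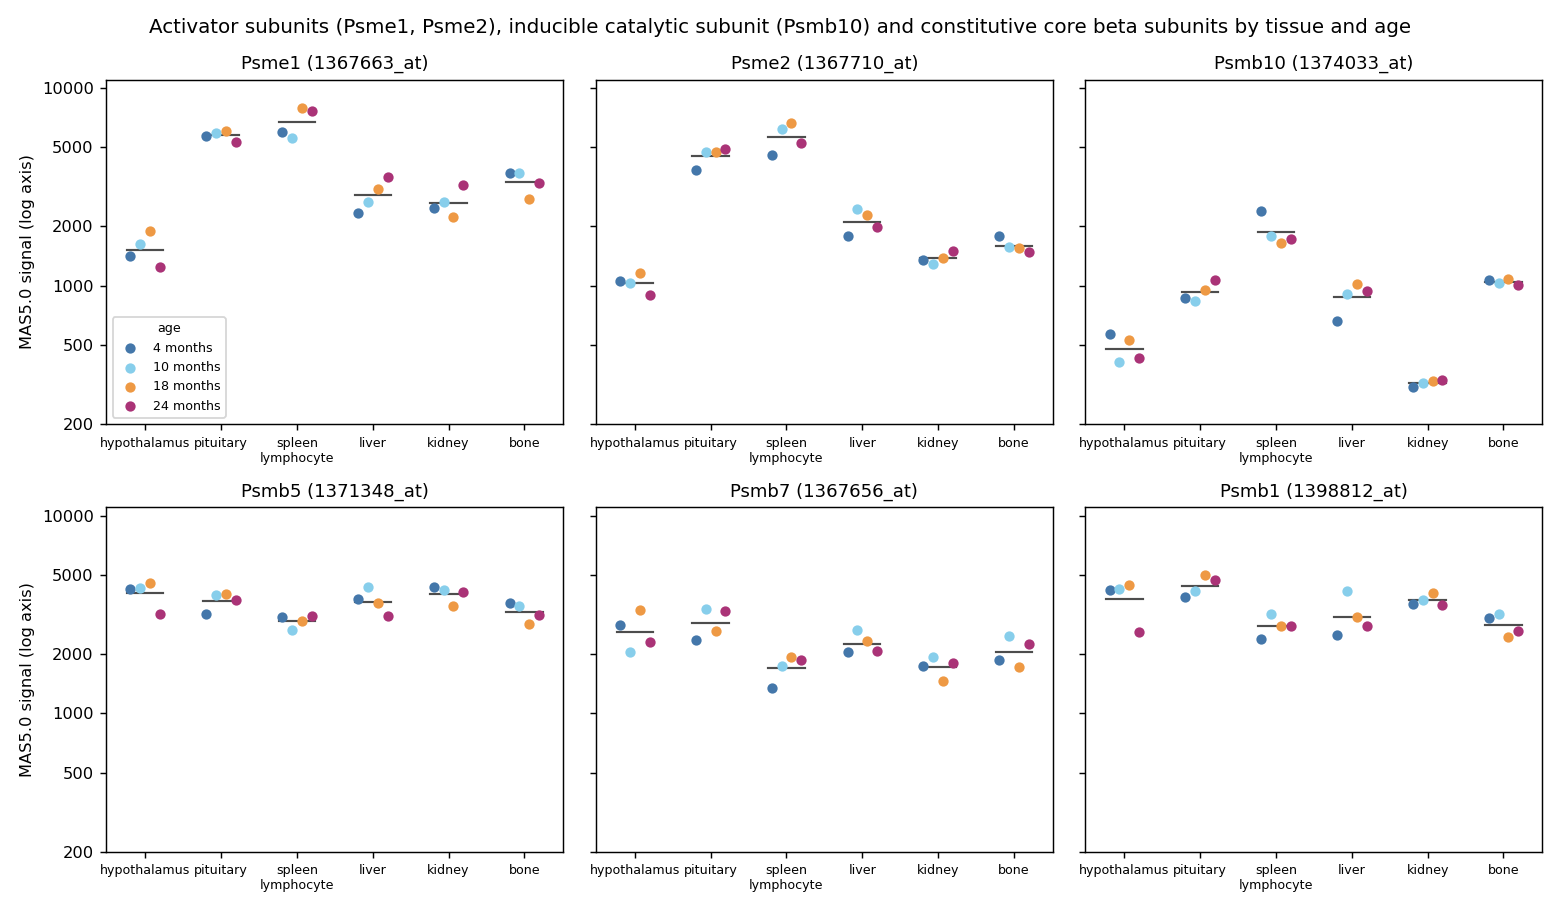
MAS5.0 signal (log axis) of 6 genes by tissue, 1 point per array coloured by age, with a line at the geometric mean of the 4 ages. Psme1 and Psme2 are high in pituitary and spleen lymphocyte, Psmb10 is highest in spleen lymphocyte, and Psmb5, Psmb7 and Psmb1 vary little between tissues.

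Promoter windows are shown for these 3 genes and for the constitutive Psmb5, because the inducible genes and the constitutive ones have different known regulators. Interferon-responsive factors bind GAAANNGAAA, the core of the interferon-stimulated response element, while NRF factors bind TGACNNNGC, the core of the antioxidant response element. Each window runs from 250 bases before to 50 bases after an annotated start in RefSeq (build GRCr8), 300 bases in all, and both strands were searched. Capitals mark GAAANNGAAA in Psme1, Psme2 and Psmb10 and TGACNNNGC in Psmb5. The windows lie at chr15:33038721-33039020 on the plus strand for Psme1, and on the minus strand at chr15:33052702-33053001 for Psme2, chr19:50743243-50743542 for Psmb10 and chr15:32047330-32047629 for Psmb5.
Psme1: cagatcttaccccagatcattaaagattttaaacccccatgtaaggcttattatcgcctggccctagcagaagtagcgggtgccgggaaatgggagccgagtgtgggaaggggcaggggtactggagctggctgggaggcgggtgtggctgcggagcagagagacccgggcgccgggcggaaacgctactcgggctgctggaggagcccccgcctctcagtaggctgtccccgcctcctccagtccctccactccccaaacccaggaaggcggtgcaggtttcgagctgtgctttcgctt
Psme2: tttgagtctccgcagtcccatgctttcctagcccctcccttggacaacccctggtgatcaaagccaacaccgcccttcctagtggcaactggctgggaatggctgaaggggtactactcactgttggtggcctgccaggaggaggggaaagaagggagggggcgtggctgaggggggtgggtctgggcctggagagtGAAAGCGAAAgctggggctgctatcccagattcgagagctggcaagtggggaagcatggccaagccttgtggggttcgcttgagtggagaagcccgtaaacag
Psmb10: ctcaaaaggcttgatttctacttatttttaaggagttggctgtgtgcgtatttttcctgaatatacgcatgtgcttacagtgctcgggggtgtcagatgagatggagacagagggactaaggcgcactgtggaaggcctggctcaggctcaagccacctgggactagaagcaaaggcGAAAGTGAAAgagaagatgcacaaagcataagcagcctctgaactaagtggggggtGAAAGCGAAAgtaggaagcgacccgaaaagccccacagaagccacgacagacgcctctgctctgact
Psmb5: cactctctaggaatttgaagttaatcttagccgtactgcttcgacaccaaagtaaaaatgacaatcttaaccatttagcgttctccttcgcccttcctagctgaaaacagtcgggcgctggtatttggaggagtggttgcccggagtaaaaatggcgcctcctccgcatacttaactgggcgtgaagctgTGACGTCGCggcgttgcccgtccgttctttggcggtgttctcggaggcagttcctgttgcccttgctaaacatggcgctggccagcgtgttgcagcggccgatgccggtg

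Psme2 held the interferon motif 1 time, 53 bases before the start used, and Psmb10 held it 2 times, while the Psme1 window had no match. The start used for Psme2 is not the outermost one. The gene is annotated up to base 33053055 of chromosome 15, so that the whole Psme2 window lies inside it. Psme1 and Psme2 lie 6.6 kb apart on chromosome 15. Of the 37 genes 35 had a window in the table, all but Psma7 and Psmd6. GAAANNGAAA was found in 5 of the 35 (Psma4, Psmb10, Psmb3, Psmd7 and Psme2), 14.3%, beside 3.92% of all 33469 windows. TGACNNNGC was found in 7 (Psma3, Psmb2, Psmb5, Psmd1, Psmd3, Psmd9 and Psme4), 20.0%, beside 12.06% of all windows. CCAAT, the box bound by NF-Y, was found in 19 (54.3%), beside 37.49%. TTCNNNGAA, the core of the interferon-gamma activated site, was found in 2 (Psmd3 and Psmd7), 5.7%, beside 8.87% of all windows. Psme1, Psme2 and Psmb10 did not hold it. Psma4 and Psmd7 hold the interferon motif and were not called higher in spleen lymphocyte (-0.15 ± 0.12 and -0.68 ± 0.12), and Psmb3 was (0.63 ± 0.12).

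The constitutive core subunits differed between tissues by small steps, and the higher ones were mostly in the pituitary. Of the 6 constitutive beta probe sets 4 were higher in the pituitary (Psmb1, Psmb2, Psmb4 and Psmb7), beside 31.3% of all probe sets, and 4 were lower in spleen lymphocyte (Psmb1, Psmb2, Psmb5 and Psmb7), beside 32.6%. Psmb7 (1367656_at), the trypsin-like site, had 1338, 1735, 1920 and 1862 in spleen lymphocyte and 2343, 3385, 2607 and 3310 in the pituitary. The arrays of the 2 tissues did not overlap, and the differences from the other tissues were -0.41 ± 0.14 and 0.50 ± 0.14. Psmb5 (1371348_at), the chymotrypsin-like site, had 3071, 2634, 2950 and 3121 in spleen lymphocyte (-0.35 ± 0.12, adjusted p = 0.0167) and between 2837 and 4575 on the other 20 arrays, so that the ranges overlapped. In spleen lymphocyte the constitutive Psmb5 and Psmb7 were thus lower and their counterparts Psmb8 and Psmb10 higher. The calls of Psmb1, Psmb2, Psmb5 and Psmb7 in spleen lymphocyte and of Psmb1, Psmb4 and Psmb7 in the pituitary were lost under median centring. Psmb4 alone was lower in liver (-0.70 ± 0.19). Psmb3 was the exception among them, higher in spleen lymphocyte.

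Among the 7 alpha subunits, which form the outer ring and its gate, 4 were higher in the pituitary (Psma1, Psma2, Psma3 and Psma4), beside 31.3% of all probe sets, and 4 were lower in kidney (Psma2, Psma3, Psma4 and Psma6), beside 31.7%. Psma2 (1398856_at) had 2914, 3380, 3732 and 3368 in the pituitary, above every array of the other tissues (0.82 ± 0.15, adjusted p = 0.00011). Psma3 (1368508_at) had 519, 598, 477 and 621 in kidney, so that only its 24 month array reached the range of the other 20 arrays, 598 to 1737 (-1.09 ± 0.15, adjusted p = 3.43e-06). One of the unused probe sets, 1368507_at, lists Psma3l beside Psma3 and gave another tissue order, with 2445, 2645, 3493 and 2478 in kidney, all above the 1586, 1647, 2182 and 1367 of the hypothalamus, where 1368508_at was high. The tissue order of Psma3 is therefore uncertain. Psma6 (1369930_at) had 8813, 8566, 9162 and 9129 in spleen lymphocyte, above the 7218 reached elsewhere (0.70 ± 0.10). Of these calls, those of Psma1, Psma3 and Psma4 in the pituitary and of Psma2 and Psma4 in kidney were lost under median centring, and that of Psma2 in kidney was lost under 20 of the 32 alternatives. No alpha subunit was called in bone.

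Several subunits of the regulatory particle were high in the hypothalamus and low in spleen lymphocyte. Of the 5 ATPases, which unfold the substrate, 3 were higher in the hypothalamus (Psmc1, Psmc2 and Psmc5), beside 25.4% of all probe sets, and 3 were lower in spleen lymphocyte (Psmc1, Psmc3 and Psmc5), beside 32.6%. Psmc5 (1367833_at) had 2193, 2325, 3276 and 1588 in the hypothalamus, above every other array, of which the highest was a pituitary array at 1448. The log2 difference was 1.39 ± 0.18 (2.62-fold, adjusted p = 5.78e-07). Psmc1 (1398792_at) had 1826, 1780, 2297 and 1175 there, and only the 24 month array fell within the range of the other tissues, 612 to 1260 (0.90 ± 0.15). The ATPases did not move as a block: Psmc3 was lower in the pituitary (-0.47 ± 0.13) and higher in bone (0.42 ± 0.13) and liver (0.31 ± 0.13, lost under 20 of the alternatives), Psmc4 was higher in bone alone (0.46 ± 0.13), and Psmc2 was lower in kidney (-0.56 ± 0.14). Under median centring the calls of Psmc1 and Psmc5 in spleen lymphocyte, of Psmc2 in the hypothalamus and of Psmc3 and Psmc4 in bone were lost.

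Of the other base subunits, the scaffold Psmd1 was higher in the hypothalamus (0.56 ± 0.14) and pituitary (0.45 ± 0.14) and lower in spleen lymphocyte (-0.88 ± 0.14) and bone (-0.42 ± 0.14). Psmd4, a ubiquitin receptor, was higher in the hypothalamus (0.42 ± 0.16, adjusted p = 0.0299, lost under quantile normalization) and in the pituitary (0.43 ± 0.16, adjusted p = 0.0309, lost under median centring). Psmd2, the other large scaffold, was higher in kidney (0.42 ± 0.13) and lower in liver (-0.69 ± 0.13) and spleen lymphocyte (-0.39 ± 0.13).

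In the lid, which carries the deubiquitinating enzyme of the particle, 4 of 7 probe sets were lower in spleen lymphocyte (Psmd3, Psmd6, Psmd7 and Psmd8), beside 32.6% of all probe sets, and in the hypothalamus 2 were higher and 2 lower. The deubiquitinase gene Psmd14 is not among the 40 probe sets. Psmd8 (1389519_at) had 413, 454, 668 and 501 in spleen lymphocyte, below every other array, the lowest of which was a hypothalamus array at 831 (-1.06 ± 0.13, adjusted p = 2.62e-07). Psmd6 (1371851_at) had 2401, 2654, 2730 and 1593 in the hypothalamus and 2600, 2365, 2033 and 2190 in the pituitary, both 0.72 ± 0.12 over the other tissues, and it was lower in spleen lymphocyte, liver and bone. Psmd7 was higher in the same 2 tissues and lower in spleen lymphocyte and bone. Psmd13 was higher in bone (0.61 ± 0.15) and lower in the pituitary (-0.39 ± 0.15). In all, 7 probe sets were called higher both in the hypothalamus and in the pituitary: Psma3, Psmc2, Psmd1, Psmd4, Psmd6, Psmd7 and the chaperone Psmd10. The share of all probe sets called higher in both tissues was not computed. Taken singly, 25.4% of all probe sets were higher in the hypothalamus and 31.3% in the pituitary. Under median centring the pituitary calls of Psma3, Psmc2, Psmd1, Psmd4 and Psmd7 were lost, and Psmd6 and Psmd10 were called in both tissues under every alternative.

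The base chaperones assist the ATPase ring in its assembly and leave the finished particle. Psmd10 (1387784_at), also known as gankyrin, had 1266, 1442, 1333 and 1420 in the pituitary and 998, 1349, 1230 and 1118 in the hypothalamus, against 464 to 1027 on the other 16 arrays, a range that the 4 month hypothalamus array alone fell into. Its differences were 0.90 ± 0.12 (adjusted p = 1.46e-06) in the pituitary, 0.63 ± 0.12 in the hypothalamus and -0.74 ± 0.12 in spleen lymphocyte. Psmd5 was higher in bone (0.94 ± 0.15) and the pituitary (0.59 ± 0.15) and lower in liver (-0.70 ± 0.15), spleen lymphocyte (-0.65 ± 0.15) and hypothalamus (-0.37 ± 0.15). Psmd9 differed by less, from -0.40 ± 0.12 in kidney to 0.36 ± 0.12 in bone. The chaperones of the core were listed apart with other assembly factors, 6 probe sets in all. In bone 3 of the 6 were lower (25.0% of all probe sets), Psmg4 (-0.65), Psmg1 (-0.46) and Pomp (-0.40), and Akirin2 was higher (1.37). Pomp was 0.94 higher in liver, and Psmg4 was 0.93 higher in the pituitary, while in the hypothalamus only Psmg3 was called (0.47).

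Psmf1 (1389387_at) was high in bone and low in kidney. Bone had 1189, 3095, 2199 and 2477 at 4, 10, 18 and 24 months, all above the 996 that was the highest signal of the other 20 arrays. Kidney had 394, 431, 369 and 416, and of the other tissues only the 24 month hypothalamus array (401) was in that range. The log2 differences were 1.71 ± 0.20 (3.27-fold, adjusted p = 2.13e-07) in bone, -1.17 ± 0.20 (adjusted p = 3.27e-05) in kidney and -0.51 ± 0.20 in the hypothalamus. Over the same 4 bone arrays the bone markers summed to 89801, 47032, 35164 and 26916 and the neutrophil markers to 37317, 66838, 76084 and 98944. The part of this change in cell make-up in the Psmf1 signals was not tested.

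The probe sets of Psme4 and of Psmd11 disagreed with each other, so that no tissue order of these genes can be given. For Psme4, 1368817_at was lower in the hypothalamus (-1.43 ± 0.12), 1387345_at was too (-1.42 ± 0.22), and 1368818_at was not called (0.24 ± 0.16). In bone 1387345_at was 1.84 ± 0.22 and 1368817_at 0.84 ± 0.12 higher, whereas 1368818_at was lower (-0.45 ± 0.16). In spleen lymphocyte 1368818_at was 2.79-fold lower (-1.48 ± 0.16) and 1368817_at showed no difference that passed the test (-0.01 ± 0.12).

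For Psmd11, a lid subunit, the 1374712_at probe set had 623, 583, 666 and 565 in kidney and 2674, 2882, 2537 and 2210 in liver. The log2 differences were -1.40 ± 0.24 in kidney and 1.09 ± 0.24 in liver. The other probe set, 1376069_at, had 1262, 1038, 1237 and 1425 in kidney, which was not called (-0.05 ± 0.13), and 1677, 1958, 1606 and 1810 in liver (0.57 ± 0.13). Both were called higher in liver and lower in the hypothalamus, and they parted in kidney. The hypothalamus signals of 1374712_at ran from 399 at 4 months to 1954 at 24 months. Its call there was lost without the 4 or the 10 month array of that tissue. That of 1376069_at was lost without the 4, 10 or 18 month array.

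**Figure D3:**
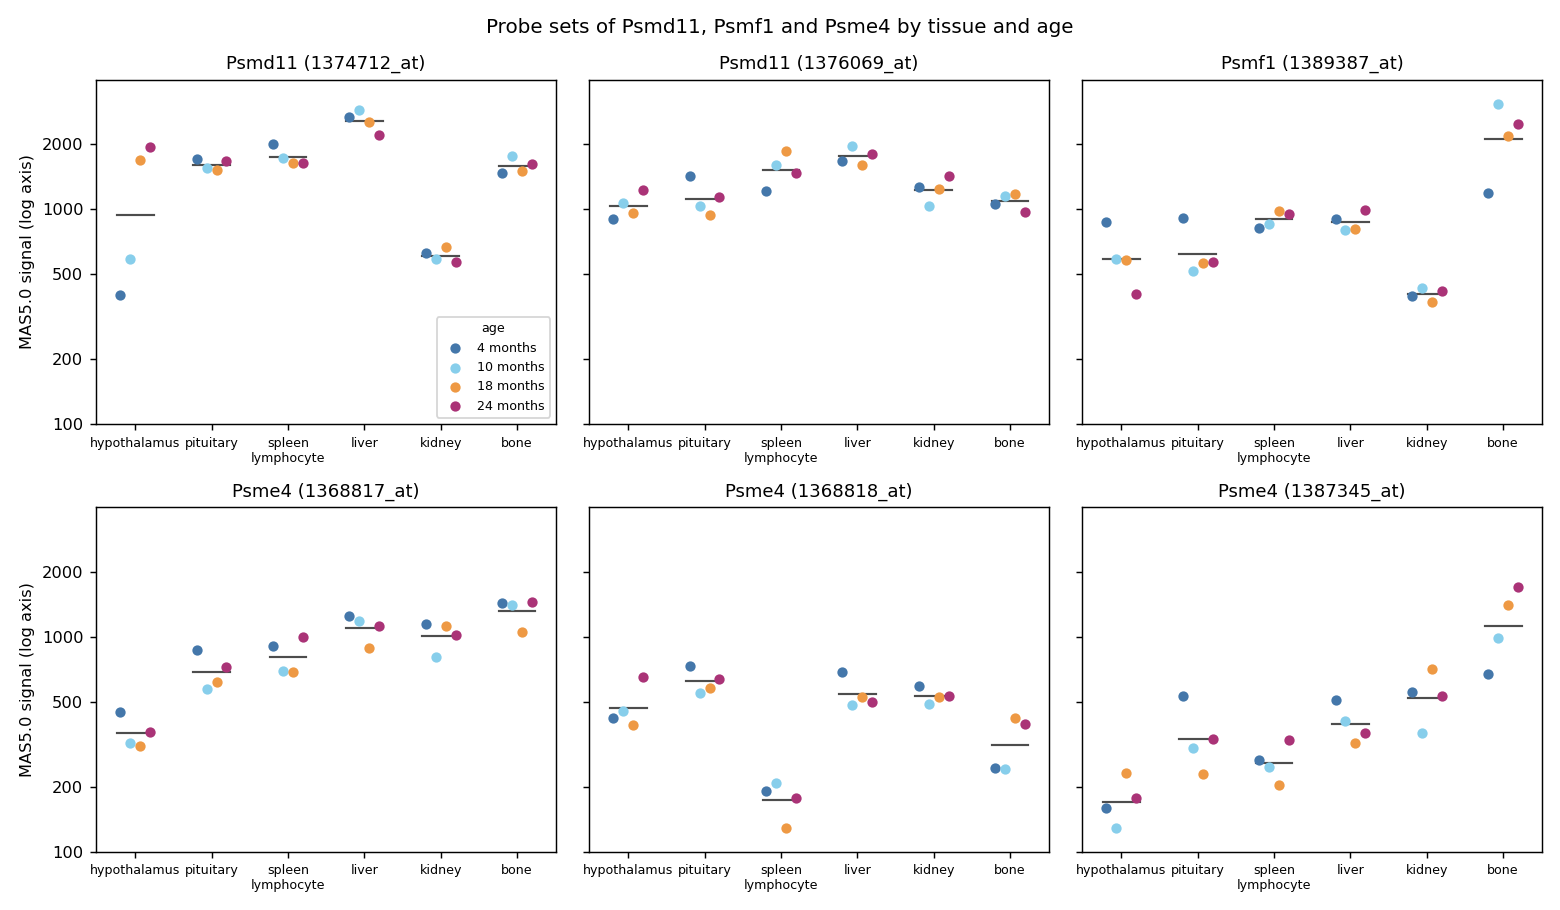
MAS5.0 signal (log axis) of the probe sets of Psmd11, Psmf1 and Psme4 by tissue, 1 point per array coloured by age, with a line at the geometric mean of the 4 ages. The 2 Psmd11 and 3 Psme4 probe sets give different tissue orders, Psmf1 is high on all 4 bone arrays, and 1374712_at climbs with age in the hypothalamus, 399 to 1954.

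The 2 genes that share only the prefix had log2 ranges of tissue means of 1.22 (Psme3ip1) and 1.09 (Psmc3ip), beside a median of 1.08 for the 40. Psme3ip1 was higher in kidney (0.71 ± 0.15) and lower in liver (-0.76 ± 0.15), and Psmc3ip was higher in the pituitary (0.61 ± 0.18) and lower in liver (-0.69 ± 0.18). Among the other pathway lists, 4 of the 6 tested probe sets of 19S partners such as Adrm1 and Txnl1 were higher in liver (20.4% of all probe sets) and none was lower. Of the ubiquitin shuttles and unfoldase genes, 5 of 12 (41.7%) were lower in spleen lymphocyte, beside 32.6% of all probe sets, among them Ddi2 (-1.36) and Vcp (-0.67), and none was higher. Of the 10 probe sets of transcription factors of proteasome genes, the stress factor Nfe2l2 was -1.27 in the hypothalamus and 0.90 in kidney, and the 3 probe sets of Nfe2l1 disagreed in sign in the hypothalamus (0.95, -0.52 and -0.37). Of the ubiquitin-activating enzymes, Uba1 was higher in the pituitary (0.80) and lower in liver (-0.90).

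No subunit was called for age over all 6 tissues together. With tissue and age as factors in limma, 0 of 40 probe sets were called for 10 against 4 months, 18 against 10, 24 against 18 and 24 against 4 months. The shares of all probe sets called were 0.0170%, 0%, 0% and 0.0425%, and 1, 0, 1 and 0 of the 40 had an unadjusted p below 0.05. The median log2 differences of the 40 were 0.06, 0.00, -0.03 and -0.01.

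A steady change within a tissue was tested as a slope per 10 months with a slope for each tissue. In the hypothalamus 1 of 40 was called (3.49% of all probe sets). No member was called in the pituitary (0%), spleen lymphocyte (0.102%), liver (0.111%), kidney (0%) or bone (2.29%), where 0, 2, 0, 0 and 2 had an unadjusted p below 0.05, beside 6 in the hypothalamus. The called probe set was Psmd11 1374712_at, with 399, 588, 1691 and 1954 at 4, 10, 18 and 24 months in the hypothalamus. Its slope was 1.25 ± 0.14 log2 units per 10 months (adjusted p = 3.5e-05), and it stayed between 1.16 and 1.51 under every alternative run, each left-out array included. The call was kept in all of them. Its slopes differed between the 6 tissues (F test, adjusted p = 0.00433, 1.44% of all probe sets called), and the other tissues' arrays showed no such climb: the 24 and 4 month arrays had 1666 and 1711 in the pituitary and 565 and 623 in kidney. Without the 4 month hypothalamus array the difference between slopes was no longer called. The other Psmd11 probe set, 1376069_at, had 903, 1073, 954 and 1231 in the hypothalamus and was not called (0.16). The E1 enzyme gene Uba6, a pathway gene, had 107, 72, 467 and 1360 on the same arrays (slope 1.97 ± 0.24, adjusted p = 5.4e-05). On these arrays the pituitary markers summed to 3359, 4133, 5357 and 5958 and the proliferation markers to 1418, 1985, 2396 and 3209. The hypothalamus markers summed to 59987, 56087, 70059 and 60772. The part of cell make-up in the signals of Psmd11 1374712_at and Uba6 was not tested.

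Between consecutive ages of a tissue there is 1 array on each side, so a change was counted at 2-fold where neither array had a signal under 100, and no test applies. Over the 18 phases 8 of 720 comparisons of the 40 probe sets passed, 3 higher and 5 lower, while 4.25% of all probe set comparisons passed. The 40 had higher signals than most probe sets, and the comparison was not matched for signal. The part of signal level in this difference was not tested. In the hypothalamus at 18 against 10 months Psmd11 1374712_at was higher (1691 and 588, log2 1.52, 4.24% of all probe sets higher). In the hypothalamus at 24 against 18 months 3 were lower, with 1.92% of all probe sets lower: Psma2 (1355 and 2818, -1.06), Psmc5 (1588 and 3276, -1.04) and Psmd13 (326 and 661, -1.02). In the pituitary at 10 against 4 months Psmd5 was lower (860 and 1731, -1.01, 1.26%), and in spleen lymphocyte at 24 against 18 months Psmb4 was lower (2232 and 4586, -1.04, 1.15%). In bone at 10 against 4 months Psmf1 (3095 and 1189, 1.38) and Psmc3ip (724 and 314, 1.21) were higher, with 3.85% of all probe sets higher. In liver and kidney no change passed. Of the 8, 4 were just past the limit: Psmd5, Psmd13, Psmb4 and Psmc5 lay within 0.05 log2 units of it.

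Between 24 and 4 months, 1 of the 40 was higher in the hypothalamus (5.14% of all probe sets) and 2 were lower (4.24%). These were Psmd11 1374712_at (2.29), Psmf1 (401 and 872, -1.12) and Psmd13 (326 and 673, -1.04). In bone 2 were higher (4.77%), Psme4 1387345_at (1714 and 673, 1.35) and Psmf1 (2477 and 1189, 1.06).

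The hypothalamus at 24 months was, of the 24 arrays, the one on which the subunits stood farthest from the rest of the transcripts. At 24 against 18 months 34 of 40 probe sets had a lower signal, with a median log2 change of -0.54, beside 0.01 for all probe sets. Against the mean of the 3 earlier ages 32 of 40 were lower, with a median of -0.40, while 47.2% of all probe sets were lower. Quantile normalization gave 34 of 40 (51.8% of all probe sets lower) and median centring 35 of 40 (58.1%). All 5 ATPases, all 6 constitutive beta subunits and all 3 other base subunits were below their hypothalamic means, and the group medians were -0.35, -0.40 and -0.29. Psmb1 shows the pattern, with 4197, 4238, 4446 and 2595 at 4, 10, 18 and 24 months, and Psmb4 had 3799, 4579, 4958 and 2544. The 8 probe sets that were not lower were those of Psma3, Psma6, Psmd11, Psme4 and Psmc3ip, and Psma3 had 1426, 1226, 1561 and 1653. On the same array the hypothalamus markers summed to 60772, against 59987, 56087 and 70059 at 4, 10 and 18 months. Within that list the markers moved in both directions: Oxt was 5268, against 8136, 7578 and 10767, and Avp 3373, against 5430, 5065 and 6547, while Snap25 was 14711, against 10459, 10122 and 9626. The limma weight of the array was 0.429, where 1 is the average and the 24 weights ran between 0.33 and 2.89, and 3 arrays (bone at 4 and 18 months and kidney at 18 months) had lower ones. It is 1 pooled array, and the part of array quality or of the dissected region was not tested.

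**Figure D4:**
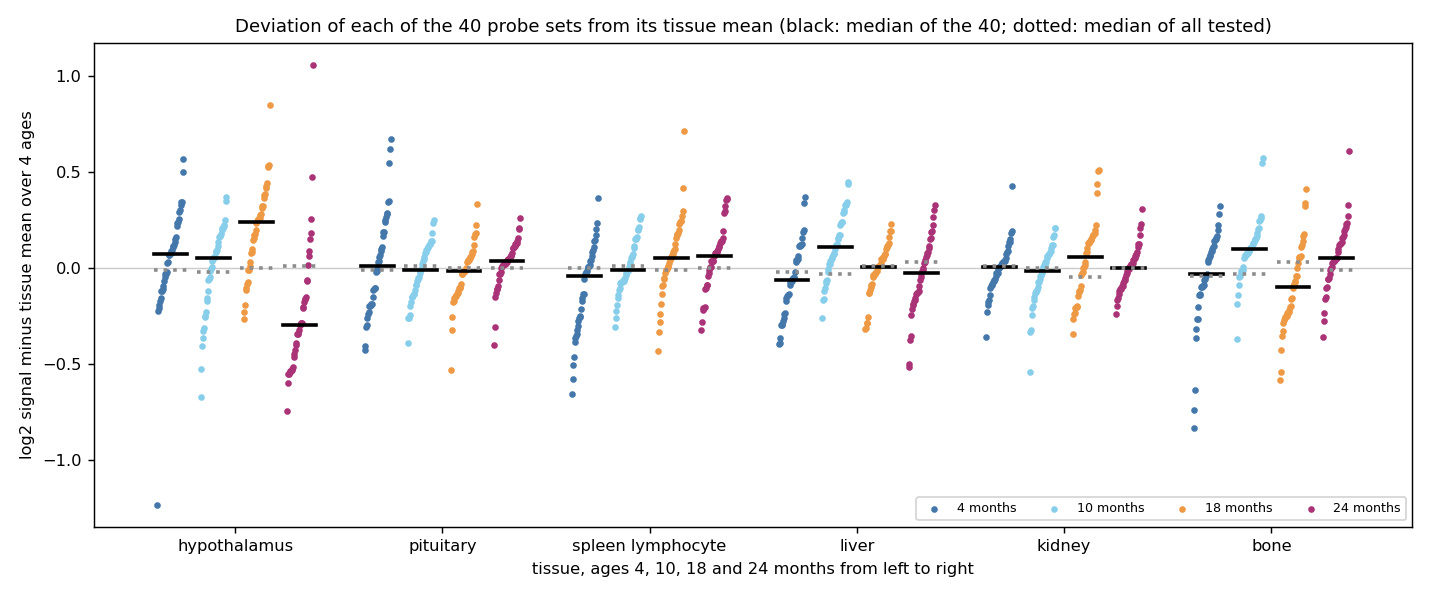
Log2 signal of each of the 40 probe sets minus its mean over the 4 ages of a tissue, 1 point per probe set sorted by value within each array. Black bars are medians of the 40, and dotted bars medians of all tested probe sets. The hypothalamus at 24 months has a black bar at -0.30 and a dotted bar at 0.01.

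On the 18 month hypothalamus array 31 of 40 were above the mean of the other ages (median 0.32), a mean that includes the 24 month array. On the 18 month bone array 27 of 40 were below the mean of the other ages (median -0.13), on the 10 month liver and bone arrays 30 were above (0.15 and 0.13), and in the pituitary, spleen lymphocyte and kidney no array median was farther than 0.09 from the other ages. The 18 month bone value turned on the scaling: 20 of 40 were lower under quantile normalization (49.7% of all probe sets), and 37 of 40 under median centring (median -0.44, 66.0% of all probe sets). Among genes of 1 complex, signals can move together from array to array, and this was described by Pearson correlations after the tissue means were taken away, over the 24 arrays, which all pairs share. The median was 0.17 over the 780 pairs of the 40 probe sets, beside 0.01 over all pairs of tested probe sets, and 12.6% beside 3.7% of pairs passed 0.5. It was 0.57 among constitutive beta subunits, 0.53 among ATPases, 0.31 among alpha subunits, 0.07 in the lid and -0.22 among the activator probe sets. Without the 24 month hypothalamus array the median over the 40 was 0.08.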

How the data were processed

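The study used Affymetrix RAE230A arrays, 1 for each of 6 tissues and 4 ages. The authors computed the deposited intensity of each probe set with MAS5.0 (version not given in the sources used here), on a linear scale with each array scaled to a target of 500. These values were used as deposited. Detection calls were not used. Signals under 100 were set to 100 and log2 was taken. Probe sets with 100 or more on at least 12 of 24 arrays were tested, 11756 of 15866. Limma 3.58.1 in R 4.3.3 fitted tissue and age as factors (15 residual degrees of freedom), and, for slopes per 10 months, an intercept and a slope for each tissue (12 residual degrees of freedom). Benjamini-Hochberg adjustment ran over all tested probe sets of a contrast, called at 0.05. The number of arrays, 1 per group, limits the precision. The scripts were tested on simulated data. Of the 15866 probe sets 12783 carry 1 gene symbol, 312 several and 2771 none, by GEO's platform annotation.

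The probe sets and pathway lists were chosen with earlier results of these data known. Values are given for the 3 called probe sets with the largest difference in each direction of each tissue contrast, the called slopes, every 2-fold change between consecutive ages, the catalytic subunits, activators and inhibitor, and for other probe sets by group. Markers of a list are summed over 1 probe set per gene. Alternatives were quantile normalization, median centring, other filters and floors, 1 probe set per gene, array weights, no age term, and leaving out each array or tissue. Promoter sequences are from RefSeq (GRCr8). Python 3.11.15 and matplotlib 3.10.9 drew the figures.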

Additional observations from a re-analysis of the deposited data

Results flagged for a closer look

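The age slopes of Psmd11 (1374712_at) differed between the 6 tissues (F test of the slopes in limma, adjusted p = 0.00433), with 1.25 ± 0.14 log2 units per 10 months in the hypothalamus. Without the 4 month hypothalamus array the difference was not called. The other Psmd11 probe set, 1376069_at, was not called in this test. With 1 array per group, no group could be examined for a sample that stands far from the others.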

How the results depend on the processing

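With 1 pooled array per group, a called tissue difference rests on 4 arrays of a tissue and a slope on 4 ages, and MAS5.0 signals of different probe sets cannot be ranked. No called difference changed direction under any alternative. Of 117 called tissue differences and slopes of single probe sets, 64 were called under every alternative run; 34 were lost under median centring, 6 under quantile normalization, 8 under the floor, filter, weight, probe set or covariate alternatives, and 45 when 1 array was left out, 38 of these only through arrays of the tissue itself. Those lost in this way were, in the hypothalamus, Psmc2, Psmd4, Psmd5, Psmd9, both probe sets of Psmd11, and Psmf1. In the pituitary they were Psma1, Psma3, Psmb1, Psmb4, Psmc2, Psmc3ip, Psmd1, Psmd4, Psmd13 and Psme4 1368817_at. In spleen lymphocyte they were Psmb1, Psmb2, Psmb5, Psmb7, Psmc5, Psmd2, Psmd11 1376069_at and Psme4 1387345_at. In liver they were Psma2, Psmc1, Psmc3 and Psme4 1368818_at. In kidney they were Psma2, Psma4, Psmb3, Psmb7, Psmd2, Psmd9, Psme1, Psme4 1368817_at and Psme4 1368818_at. In bone they were Psmc3, Psmc3ip, Psmd1, Psmd7, Psmd9, Psme3ip1 and Psme4 1368818_at.

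The number of the 40 called in a tissue stayed within 1.5 times under every alternative except in the pituitary, where median centring gave 12 in place of 22. Leaving out 1 array at a time gave 14 to 20 in the hypothalamus, 15 to 23 in the pituitary, 20 to 25 in spleen lymphocyte, 12 to 18 in liver, 12 to 20 in kidney and 12 to 19 in bone. In the hypothalamus slope 1 probe set was called (3.49% of all probe sets), 2 without a filter and 5 with array weights, of which 4 were lower. The share of all probe sets called under these alternatives was not computed, so the larger counts have no background beside them. The difference between slopes was called for 1 probe set and for 0 without the 4 month hypothalamus array. The age contrasts over all tissues and the other slopes called 0 under every alternative. The 8 changes between consecutive ages became 56 at 1.5-fold and 15 under median centring. The share of all probe sets over all phases was not computed for these settings. At 1.5-fold, the hypothalamus at 24 against 18 months had 1 of the 40 higher and 15 lower. Of all 11227 probe sets there, 1228 were higher and 1096 lower. Bone at 18 against 10 months had 1 of the 40 higher and 2 lower, beside 2009 and 842 of all 10668. The causes were not tested.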
